A study of Mus musculus with 84 samples.

Results

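Enteroendocrine cells are rare hormone-secreting cells scattered through the gut epithelium, which sense nutrients and products of the bacteria in the lumen and release peptides and serotonin. They are grouped by their products: L cells of the distal gut make the GLP-1 precursor and PYY, enterochromaffin cells make serotonin, and D cells make somatostatin. All store their products in dense-core granules that hold chromogranins, and they arise from the same stem cells as the absorptive and goblet cells around them. The 10 genes described here were taken by symbol from a count table of 25494 genes of the mouse colon: Gcg (proglucagon, the precursor of GLP-1 and GLP-2), Pyy (peptide YY), Insl5 (insulin-like peptide 5), Cck (cholecystokinin), Nts (neurotensin), Sst (somatostatin), the granule proteins Chga and Chgb (chromogranins A and B), Tph1 (the rate-limiting enzyme of serotonin synthesis outside the nervous system) and Neurod1 (a transcription factor of endocrine differentiation). Each of the 10 symbols had 1 row in the table, and each passed the filter on low counts that kept 15893 genes for testing.

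The RNA came from cells scraped from the colon of male C57BL/6 mice that had been germ-free and were colonized with faecal bacteria of male donors. The recipients ate a high fat diet (HFD) or a low fat diet (LFD), and the bacteria came from donors on the high fat (HFB) or the low fat diet (LFB), which gave the groups HFDHFB, HFDLFB, LFDHFB and LFDLFB with 3 RNA-seq libraries each. H3K27ac, a histone mark of active promoters and enhancers, was profiled in colon epithelium of the same 4 groups with 3 libraries each, apart from 2 in HFDHFB, and together with H3K4me1, a mark of enhancers, in male and female C57BL/6 mice on HFD or LFD with 3 libraries per sex and diet. HNF4a, a transcription factor of the gut epithelium, was profiled in 2 male libraries per diet. The labels do not say that each library was a separate animal, so the p-values measure the spread between libraries, which may be technical. In bulk material fewer endocrine cells and less RNA per cell cannot be told apart.

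The genes lie on 8 chromosomes of the mm9 build, and for each the gene body was extended by 10 kb on both sides when peaks were counted. Gcg was given at chr2:62312587-62321710, Chgb at chr2:132607014-132620808, Neurod1 at chr2:79292798-79296793, Pyy at chr11:101967991-101969090 and Insl5 at chr4:102690478-102699447. Chga was given at chr12:103793151-103803237, Sst at chr16:23889667-23890930, Nts at chr10:101944390-101953052, Tph1 at chr7:53900011-53927907 and Cck at chr9:121398942-121404812. Chga and Chgb are on the plus strand and the other 8 genes on the minus strand. The window of Pyy also holds Ppy, its paralog for pancreatic polypeptide, and those of Chga, Chgb and Tph1 reach into Itpk1, Trmt6 and Sergef.

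The sequences before the starts of 4 of the genes, as the count table gives them, share a short motif at a like distance. The cAMP response element, the binding site of CREB factors, has the core TGACGTCA and the half-site TGACG, and both were searched on both strands in the 250 bases before each start. The half-site was in the windows of 6 of the 10 genes and in 19.7% of 25334 windows of all genes in the table. The 4 sequences printed here, 5′ to 3′ on the strand of the gene, are those with a half-site in the last 50 bases, where it began 44 bases before the start in Chga, 48 in Sst, 36 in Tph1 and 47 in Cck; capitals mark the half-site or its reverse complement, and in Sst the whole core.
Chga, chr12:103792901-103793150, plus strand: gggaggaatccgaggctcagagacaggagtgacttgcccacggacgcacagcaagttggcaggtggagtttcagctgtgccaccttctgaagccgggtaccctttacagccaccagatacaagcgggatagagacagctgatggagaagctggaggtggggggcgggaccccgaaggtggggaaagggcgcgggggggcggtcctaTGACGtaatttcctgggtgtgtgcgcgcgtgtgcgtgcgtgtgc
Sst, chr16:23890931-23891180, minus strand: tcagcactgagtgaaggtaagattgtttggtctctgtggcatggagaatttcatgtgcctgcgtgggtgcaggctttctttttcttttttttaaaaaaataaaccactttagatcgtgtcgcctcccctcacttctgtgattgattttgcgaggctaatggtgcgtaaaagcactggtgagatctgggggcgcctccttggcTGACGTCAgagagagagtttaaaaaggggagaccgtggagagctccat
Tph1, chr7:53927908-53928157, minus strand: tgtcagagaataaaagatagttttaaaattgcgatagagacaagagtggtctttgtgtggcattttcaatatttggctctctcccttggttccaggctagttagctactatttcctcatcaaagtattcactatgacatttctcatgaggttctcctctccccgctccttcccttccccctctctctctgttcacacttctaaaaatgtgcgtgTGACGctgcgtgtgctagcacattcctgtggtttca
Cck, chr9:121404813-121405062, minus strand: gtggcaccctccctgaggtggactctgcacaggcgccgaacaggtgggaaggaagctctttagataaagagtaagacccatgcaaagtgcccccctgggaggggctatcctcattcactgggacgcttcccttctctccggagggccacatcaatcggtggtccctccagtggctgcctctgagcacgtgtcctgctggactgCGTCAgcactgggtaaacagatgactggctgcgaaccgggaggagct
Of all genes, 6.95% had a half-site in those 50 bases, a window chosen after the positions were seen. In the gene annotation GENCODE vM1 Chga starts at 103793179, downstream of the start used here, and by that start its half-site lies outside the window. The whole core was in the windows of 1 of the 10 genes, Sst, and of 2.06% of all genes. TATAAA, a core of the TATA box, was searched on both strands. It was found 24 bases before the start of Gcg, and as its reverse complement 72 bases before it. It was in none of the other 9 windows, against 12.3% of all windows, and variants of the box were not searched. The E-boxes CAGCTG and CAGATG, which basic helix-loop-helix factors such as Neurod1 can bind, were in 2 and 4 of the 10 windows and in 12.1% and 12.6% of all windows. A match of letters is a description and does not show a bound site.

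One library stood apart. LFDHFB replicate 3 differed from its 2 group mates by a chi-square per gene of 377 and 381, while the other 10 pairs of replicates differed by 42.4 to 157. Its 6 genes of the distal hindgut Hox code, which mark position along the colon, summed to 29.8 CPM (counts scaled to the TMM-adjusted total of each library), against 437 to 1070 CPM in the other 11 libraries. Its 10 enteric neuron markers summed to 473 CPM, against 63.4 to 253 CPM elsewhere. Where leaving this library out turned a direction or moved a log2 fold change by over 1.5 times, the value without it is given beside the result. What set it apart was not tested. A 2nd library, HFDLFB replicate 3, held pancreatic acinar transcripts: its acinar genes other than Cela1 summed to 473 CPM, against 0.146 to 6.49 CPM in the other 11. The islet genes Ins1, Ins2 and Slc30a8 had no read in any of the 12 libraries, which allows at most 0.0752 CPM in the shallowest one, while the other 3 genes of the islet list were found: Ppy, which the colon also makes, at 8.75 to 39.8 CPM, G6pc2 at 0.151 to 7.34 CPM and Iapp at 0.0222 to 4.97 CPM. Islets also make Gcg and Sst, and the part of islet RNA in their values was not tested. Library totals ran from 39904191 to 48026846 counted reads, and the epithelial keratin Krt8 stood at 3256 to 5483 CPM in all 12 libraries.

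Levels between genes were compared per length, as CPM per kb of exon in GENCODE vM1. Pyy was the highest at 150.0 ± 52.4 CPM per kb (SD, n = 12), followed by Insl5 at 88.6 ± 39.7, Chgb at 81.1 ± 54.5 and Chga at 61.6 ± 34.7 CPM per kb. Sst, Gcg, Nts and Tph1 came next at 35.2 ± 37.7, 20.7 ± 8.52, 16.1 ± 22.1 and 14.1 ± 7.81 CPM per kb. Cck and Neurod1 were the lowest at 0.941 ± 0.784 and 0.828 ± 0.305 CPM per kb. The ranges of neighbours in this order overlapped throughout, apart from the step between Tph1, at 5.60 CPM per kb or more, and Cck, at 2.68 CPM per kb or less. The order by mean leaned on LFDHFB replicate 3, at 134 CPM per kb for Sst and 81.3 for Nts. By median, Gcg at 18.3 stood above Sst at 13.4, and Tph1 at 13.0 above Nts at 9.90 CPM per kb. Pyy and Insl5 thus stood beside the chromogranins at the top of the order, and Cck RNA, typical of the proximal gut, was near the bottom. Of the 8 other gut hormones listed for comparison, Gast (gastrin) and Gip were at 0 reads in 11 and 10 of the 12 libraries, and Ghrl (ghrelin) reached at most 0.538 CPM. Tac1 (substance P), Ppy and Sct (secretin) ran from 9.93 to 74.9, from 8.75 to 39.8 and from 4.44 to 35.3 CPM.

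**Figure D1:**
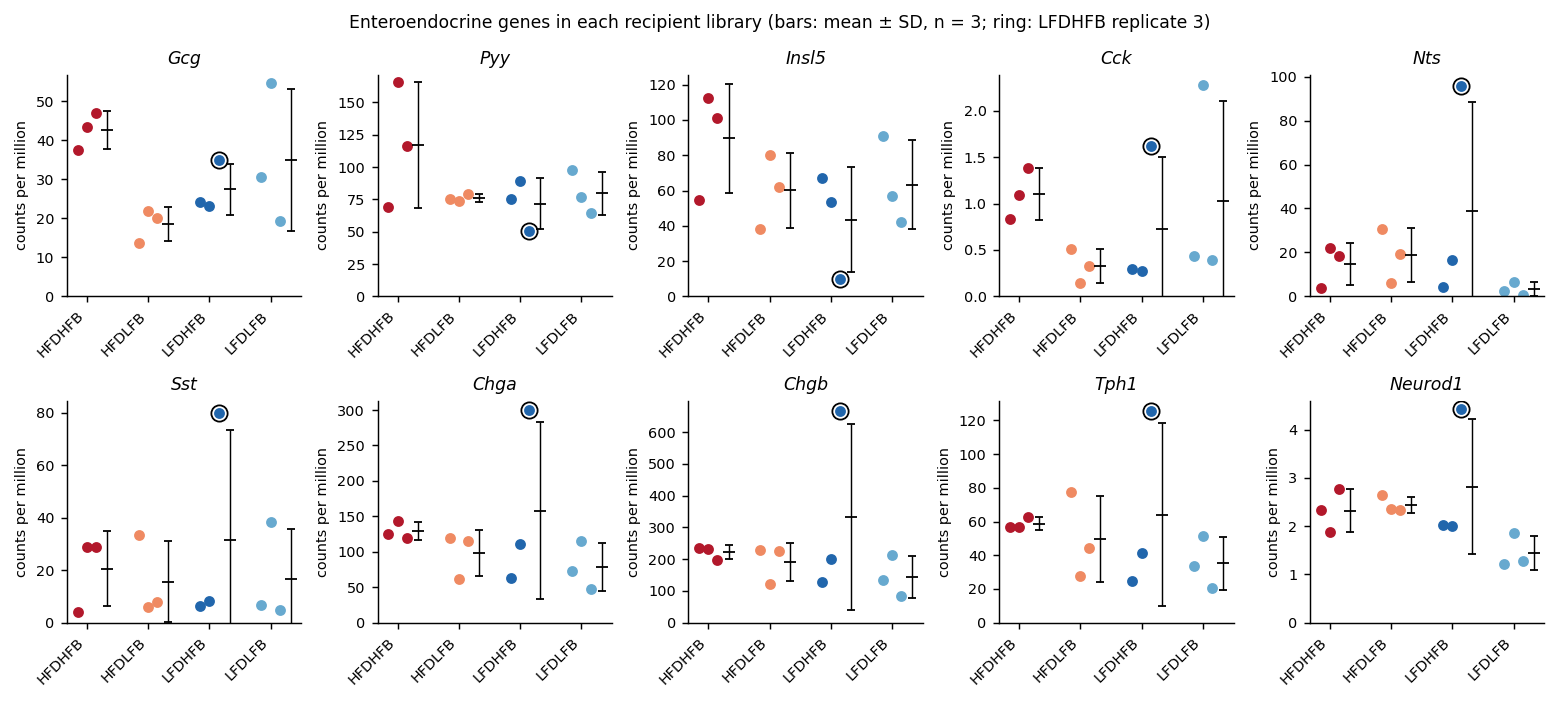
CPM of the 10 genes (vertical axes, each from 0) in the 3 libraries of each recipient group, with the mean ± SD, cut at 0, beside the points. LFDHFB replicate 3, ringed, is the highest library for Chga, Chgb, Tph1, Nts, Sst and Neurod1 and the lowest for Pyy and Insl5, while Gcg in HFDHFB lies above every HFDLFB library.

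The comparison of HFDHFB with HFDLFB asks what the donors' bacteria change in mice on a high fat diet. Gcg was higher in HFDHFB: it was at 37.5, 43.3 and 47.1 CPM in the 3 HFDHFB libraries. In HFDLFB it was at 13.6, 21.8 and 20.2 CPM. The groups did not overlap, and the means of 42.6 ± 4.83 and 18.5 ± 4.34 CPM (SD, n = 3 each) gave a fitted log2 fold change of 1.20 ± 0.33 (SE), a 2.30-fold difference. In edgeR's quasi-likelihood test the unadjusted p was 0.00381 and the Benjamini-Hochberg adjusted p over 15893 genes was 0.495, so the difference did not pass the threshold of 0.05. It was the same in sign without any 1 library, at 1.02 to 1.35, and DESeq2 gave an adjusted p of 0.0824. Without HFDLFB replicate 3, the library with acinar transcripts, it was 1.28 with an adjusted p of 0.253. All 6 goblet markers had log2 fold changes above 0 in the same comparison, Muc2 at 1.47 and Spink4 at 0.86, with none past the adjusted threshold and sums of 11500 to 17200 CPM in HFDHFB and 10200 to 12800 CPM in HFDLFB. The mesothelial list summed to 36.7 to 76.0 CPM in HFDHFB and 70.1 to 383 CPM in HFDLFB. Other lists also leaned to 1 side in this comparison. Log2 fold changes were above 0 for 6 of 6 smooth muscle, 8 of 10 enteric neuron, 7 of 8 epithelial and 0 of 6 leukocyte markers. The part of RNA from any of these cells in the Gcg difference was not tested.

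On the low fat diet the Gcg values ran the other way. They were 24.1, 23.2 and 35.0 CPM in LFDHFB and 30.6, 54.8 and 19.4 CPM in LFDLFB, which overlapped, with a log2 fold change of −0.35 ± 0.33 and an adjusted p of 0.975, and −0.56 without LFDHFB replicate 3. The interaction, the difference between the log2 fold changes on the 2 diets, was 1.55 ± 0.46 for Gcg, with an unadjusted p of 0.00642 and an adjusted p of 0.386 in edgeR. Without LFDHFB replicate 3 the interaction was 1.76, with an adjusted p of 0.559. Read by diet, Gcg in HFDHFB stood above LFDHFB with no overlap, at a log2 fold change of 0.63 ± 0.33 and an adjusted p of 0.721, and 0.85 without LFDHFB replicate 3. In HFDLFB it was below LFDLFB by a log2 fold change of −0.91 ± 0.33, with an adjusted p of 0.881 and an overlap through LFDLFB replicate 3. These comparisons share libraries, HFDHFB and HFDLFB each entering more than 1 of them.

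Pyy, the other L cell peptide that curbs appetite and gut motility, had its 2 highest values in HFDHFB. It was at 69.0, 166 and 117 CPM in HFDHFB and at 75.4, 73.4 and 79.3 CPM in HFDLFB. The lowest HFDHFB library lay below all 3 HFDLFB libraries, so the groups overlapped, and the log2 fold change was 0.62 ± 0.29 with an unadjusted p of 0.056 and an adjusted p of 0.555. On the low fat diet Pyy was at 75.2, 89.5 and 50.2 CPM in LFDHFB and at 97.9, 76.8 and 64.7 CPM in LFDLFB. That log2 fold change was −0.16 ± 0.29, and 0.04 without LFDHFB replicate 3. HFDHFB against LFDHFB gave 0.71 ± 0.29, with an unadjusted p of 0.0334 and an adjusted p of 0.617, and 0.51 without the library that stood apart.

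Insl5, a relaxin family peptide made by L cells of the distal colon, had an r of 0.79 with Pyy over the 12 libraries. They did not always move together, as HFDLFB replicate 2 had the highest Insl5 and the lowest Pyy of its group. Insl5 was at 54.7, 113 and 101 CPM in HFDHFB and at 37.9, 80.4 and 61.8 CPM in HFDLFB. It was at 67.1, 53.6 and 9.94 CPM in LFDHFB and at 91.2, 57.0 and 42.0 CPM in LFDLFB. LFDHFB replicate 3 was thus the lowest of the 12, and the next lowest was an HFDLFB library. The log2 fold change was 0.58 ± 0.57 between the donors on the high fat diet and −0.54 ± 0.57 on the low fat diet, with adjusted p of 0.796 and 0.975. Without LFDHFB replicate 3 the second was −0.07. Rxfp4, the receptor of Insl5, did not pass the filter on low counts and stayed at or under 0.28 CPM.

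Cck was near the detection limit, and its groups did not overlap on the high fat diet. It was at 0.83, 1.1 and 1.38 CPM in HFDHFB and at 0.51, 0.15 and 0.32 CPM in HFDLFB, a log2 fold change of 1.74 ± 0.87 with an unadjusted p of 0.0712 and an adjusted p of 0.575. On the low fat diet it was at 0.29, 0.27 and 1.62 CPM in LFDHFB and at 0.43, 2.27 and 0.39 CPM in LFDLFB. One library in each of those groups was thus severalfold above the other two, and the log2 fold change of −0.50 ± 0.83 became −1.86 without LFDHFB replicate 3.

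Nts, a peptide of the N and L cell lineage of the distal small gut and colon, had the widest spread of the 10 genes. It was at 3.87, 21.8 and 18.5 CPM in HFDHFB and at 30.6, 6.26 and 19.4 CPM in HFDLFB. It was at 4.09, 16.6 and 95.7 CPM in LFDHFB and at 2.43, 6.67 and 0.64 CPM in LFDLFB. The LFDLFB libraries were low and LFDHFB replicate 3 was the highest of the 12. LFDHFB against LFDLFB gave a log2 fold change of 3.58 ± 1.19, with an unadjusted p of 0.0116 and an adjusted p of 0.975 in edgeR, and 1.67 without LFDHFB replicate 3. HFDLFB against LFDLFB gave 2.53 ± 1.14 with an unadjusted p of 0.0484 and an adjusted p of 0.881, and the interaction was −3.92 ± 1.57 with an adjusted p of 0.412, and −2.02 without LFDHFB replicate 3. The ranges overlapped in both comparisons with LFDLFB.

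Sst, which restrains the release of the other hormones, had low and high libraries that cut across the groups. It was at 4.19, 29.0 and 28.7 CPM in HFDHFB and at 33.3, 5.88 and 7.72 CPM in HFDLFB. It was at 6.30, 8.28 and 80.0 CPM in LFDHFB and at 6.56, 38.5 and 4.64 CPM in LFDLFB. Of the 12 libraries, 5 were at 28.7 CPM or more and the other 7 at 8.28 CPM or less, and each of the 4 groups held both kinds. The same 5 libraries had the highest sums of the 10 enteric neuron markers, 194.6 to 472.6 CPM, and the other 7 had 63.4 to 123.5 CPM; enteric neurons also make somatostatin. The summed smooth muscle markers split the same way, at 3311 to 5046 CPM in those 5 libraries and 745.9 to 1879 CPM in the other 7. Over the 12 libraries the log2 CPM of Sst and of the summed neuron markers had a Pearson r of 0.95, and 0.93 over the 11 without LFDHFB replicate 3. With the summed smooth muscle markers the r was 0.84 over 12 libraries and 0.83 over 11, a description of libraries that share processing and depth. The part of RNA from the gut wall in the Sst values was not tested. The log2 fold changes of Sst were 0.40 ± 1.14 on the high fat diet and 0.93 ± 1.15 on the low fat diet, and the second became −1.19 without LFDHFB replicate 3.

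**Figure D2:**
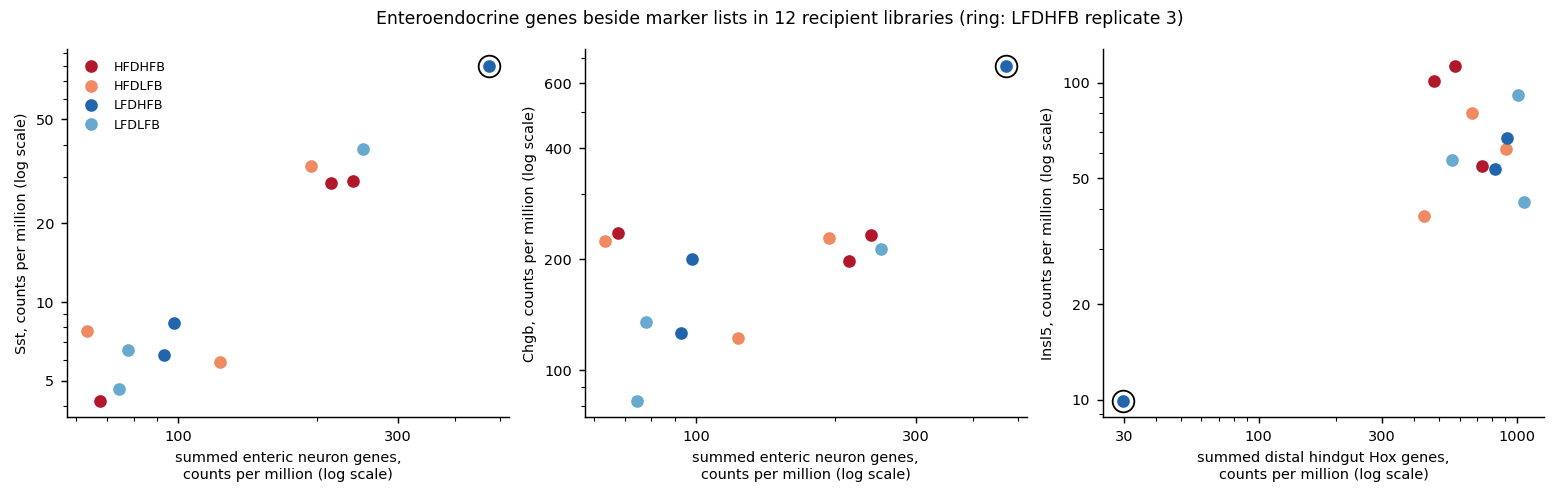
Each point is 1 of 12 recipient libraries, coloured by group, on log axes in CPM, with LFDHFB replicate 3 ringed. Sst splits into 7 low and 5 high libraries along the summed enteric neuron markers, Chgb has an r of 0.66 with that sum over 12 libraries and 0.39 over 11, and Insl5 shows no order with the distal Hox sum beyond the ringed library (r of 0.80 over 12 libraries and −0.10 over 11).

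The chromogranins and Tph1 shared a pattern across libraries. Chga was at 125, 144 and 120 CPM in HFDHFB, at 119, 61.4 and 115 CPM in HFDLFB, at 63.0, 111 and 299.6 CPM in LFDHFB and at 72.2, 115 and 47.4 CPM in LFDLFB. Chgb was at 236, 233 and 197 CPM in HFDHFB, at 229, 122 and 225 CPM in HFDLFB, at 127, 201 and 667 CPM in LFDHFB and at 135, 213 and 82.7 CPM in LFDLFB. Both were highest in LFDHFB replicate 3 and lowest in LFDLFB replicate 3. The HFDHFB libraries lay close together, and for Chga they lay above all 3 HFDLFB libraries, narrowly at the nearest pair. The log2 fold changes of HFDHFB against HFDLFB were 0.39 ± 0.50 for Chga and 0.21 ± 0.53 for Chgb, with adjusted p of 0.852 and 0.932. LFDHFB against LFDLFB gave 1.01 ± 0.50 and 1.21 ± 0.54, the second with an unadjusted p of 0.0475, and both adjusted p were 0.975. Without LFDHFB replicate 3 those values were 0.15 and 0.19.

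Tph1 was at 56.6, 56.6 and 63.0 CPM in HFDHFB and at 77.3, 27.6 and 44.2 CPM in HFDLFB. It was at 24.9, 41.4 and 125.8 CPM in LFDHFB and at 33.4, 51.7 and 20.6 CPM in LFDLFB. Tph1 was narrow in HFDHFB and wide in the other groups, and the groups overlapped in every comparison. The log2 fold changes were 0.24 ± 0.55 between donors on the high fat diet and 0.86 ± 0.55 on the low fat diet, which became −0.09 without LFDHFB replicate 3. Of the 5 other genes of serotonin handling, none passed the adjusted threshold in any comparison, and the most abundant, Maoa, which breaks serotonin down, ran from 1350 to 2100 CPM. Slc18a1, the vesicular amine transporter of enterochromaffin cells, had a log2 fold change of 1.02 ± 0.40 in LFDHFB against LFDLFB, with an adjusted p of 0.975, and 0.43 without LFDHFB replicate 3; the groups overlapped, at means of 12 ± 7.07 and 5.92 ± 1.43 CPM, and it is named here because its unadjusted p of 0.0277 was seen.

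Neurod1 acts downstream of Neurog3, the factor that commits progenitors to the endocrine lineage. Neurod1 was at 2.33, 1.87 and 2.77 CPM in HFDHFB, at 2.64, 2.35 and 2.34 CPM in HFDLFB, at 2.02, 2.01 and 4.43 CPM in LFDHFB and at 1.22, 1.86 and 1.28 CPM in LFDLFB. LFDLFB lay below both LFDHFB and HFDLFB with no overlap. The log2 fold changes were 0.96 ± 0.35 for LFDHFB against LFDLFB, with an unadjusted p of 0.0192 and an adjusted p of 0.975, and 0.75 ± 0.35 for HFDLFB against LFDLFB, with an adjusted p of 0.881. The first was 0.47 without LFDHFB replicate 3. Of the 17 other endocrine transcription factors listed, 16 were tested and none passed the adjusted threshold in any of the 5 comparisons; their median log2 fold change was 0.22 for HFDHFB against HFDLFB and 0.51 for LFDHFB against LFDLFB, beside 0 and 0.02 over all tested genes, and the second was 0.02 without LFDHFB replicate 3. The most abundant of them, Foxa1, ran from 68.0 to 99.5 CPM, and Neurog3 from 0.25 to 0.99 CPM.

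Counted over the 10 genes, no comparison had a gene past an adjusted p of 0.05, and in edgeR this was so for 0% of the 15893 genes in each of the 5 comparisons. At an unadjusted p under 0.05 there was 1 of the 10 for HFDHFB against HFDLFB (9.07% of all genes), 3 for LFDHFB against LFDLFB (3.72%), 2 for the interaction (11.3%), 1 for HFDHFB against LFDHFB (7.46%) and 2 for HFDLFB against LFDLFB (5.33%). The 3 for LFDHFB against LFDLFB were Chgb, Nts and Neurod1. Their log2 fold changes of 1.21, 3.58 and 0.96 became 0.19, 1.67 and 0.47 without LFDHFB replicate 3. Groups that did not overlap were found for 3 of the 10 genes in HFDHFB against HFDLFB, which are Gcg, Chga and Cck (13.0% of all genes), and for 1 in each of LFDHFB against LFDLFB (10.8%), HFDHFB against LFDHFB (11%) and HFDLFB against LFDLFB (11.7%). DESeq2 called 80, 0, 35, 116 and 9 genes at an adjusted p of 0.05 in the 5 comparisons, in the order given, and none of the 10, though it gave no adjusted p for Sst in any of them or for Cck in HFDHFB against LFDHFB. The log2 fold changes of 8 of the 10 genes were above 0 for HFDHFB against HFDLFB, with a median of 0.40 beside 0 over all genes, and 6 of 10 for LFDHFB against LFDLFB, with a median of 0.90 beside 0.02. Without LFDHFB replicate 3 the latter became 5 of 10 with a median of −0.01. Of the 14 genes of prohormone processing and granules, 11 and 14 were above 0 in these comparisons, with medians of 0.25 and 0.52, and none passed the adjusted threshold. For LFDHFB against LFDLFB the 14 of 14 became 2 of 14 without LFDHFB replicate 3, with a median of −0.43. The most abundant of them was Pam, which amidates peptide hormones, at 171 to 226 CPM.

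**Figure D3:**
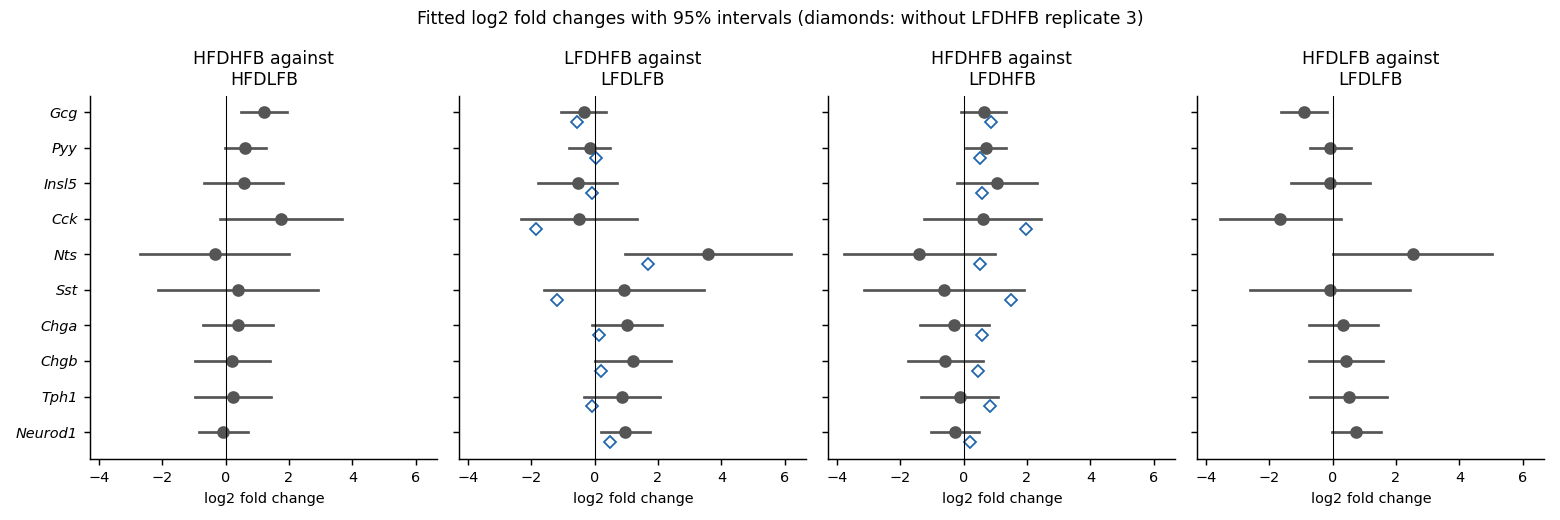
Fitted log2 fold changes of the 10 genes (points) with 95% intervals (lines) in 4 comparisons of 3 against 3 libraries, with open diamonds for the fit without LFDHFB replicate 3 where LFDHFB enters. The point of Gcg for HFDHFB against HFDLFB lies at 1.20, and several diamonds of Chga, Chgb, Tph1, Sst and Nts lie across 0 from their points or nearer to 0.

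Some pairs of the 10 genes had like patterns across libraries. Over the 12 libraries the Pearson r of log2 CPM was 0.99 between Chga and Chgb, 0.95 between Chga and Tph1 and 0.86 between Chga and Nts, and these were 0.98, 0.93 and 0.79 over the 11 libraries without LFDHFB replicate 3. Pyy and Insl5 had an r of 0.79, and 0.78 over the 11, and Gcg and Cck had 0.78 and 0.79. Gcg, Cck, Pyy and Insl5 were each nearer to genes outside the 10, the nearest at an r of 0.922 to 0.957 over 12 libraries. Between Insl5 and Chgb the r was −0.62 over 12 libraries and 0.08 over 11, so that opposite trend rested on 1 library. Gcg and Nts, both products of L cells, had an r of 0.10 over 12 libraries and 0.02 over 11. Tph1 was lower where the distal Hox genes were higher, with an r of −0.78 and a Spearman rho of −0.88 over 12 libraries and −0.80 and −0.85 over 11. This was not particular to Tph1. Over 12 and 11 libraries the r was −0.75 and −0.84 for Sst, −0.84 and −0.61 for Chgb and −0.80 and −0.63 for Chga. It was −0.79 and −0.68 for Neurod1, −0.70 and −0.69 for Nts, −0.52 and −0.54 for Cck and −0.22 and −0.26 for Gcg. For Insl5 it was 0.80 and −0.10 and for Pyy 0.40 and −0.34. The libraries share depth and processing, and the part of colon position in these levels was not tested.

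Outside the 10 genes themselves, which were left out of the search, the 3 genes most alike in pattern were taken by Pearson r of log2 CPM over the 12 libraries. Gcg was nearest to Pold2, Pdia5 and Ptma at an r of 0.94, 0.926 and 0.924. Pyy was nearest to Spag7, Abhd14b and Mrpl48, and Insl5 to Gfer, Gmfg and Dcps, at an r of 0.92 to 0.933. For Chga and Chgb, which were nearer to each other, these were Mfsd7a, Car8 and Wif1 and Snx30, Abca12 and Srgap3, at an r of 0.963 to 0.976. Sst was nearest to Gng3, Rit2 and Scg3, at 0.978 to 0.983. Nts was nearest to Grin3a, Prap1 and Ces1g, Tph1 to Hsd3b3, Chn2 and Slc8a1, Cck to Vsig2, Pde2a and 5330417C22Rik, and Neurod1 to Acvr2b, Efcab1 and Pclo, at an r of 0.925 to 0.989. Without LFDHFB replicate 3 the r of Insl5 with Gmfg and Gfer was 0.707 and 0.773, and the other 28 values were 0.858 or more.

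Active chromatin was rarely called at these genes. An H3K27ac peak lay over the start of Gcg in 1 of 23 libraries (LFDLFB replicate 2), over that of Chgb in 1 (HFD female replicate 3) and over that of Cck in 1 (HFDLFB replicate 1), and over the starts of the other 7 genes in none. Among the 9302 genes with a mean of at least 10 CPM in the recipients, 81.6% had an H3K27ac peak over the start in all 11 recipient libraries and 5.64% in none; of the 8 enteroendocrine genes at that level, 0 had it in all and 7 in none. In the 12 libraries of the HFD and LFD mice the shares were 83.7% and 6.15%, and again 0 and 7 of the 8 genes. The peak lists hold positions and no read counts, so the depth behind an absent peak is unknown and a mark below the calling threshold was not detectable.

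Within 10 kb the H3K27ac peak found in every library lay at a neighbour. Tph1 had covered length in 23 of 23 libraries, 0.60 to 2.40 kb, from a peak over the start of Sergef, centred 32.61 kb downstream of the Tph1 start, and in 1 HFDLFB library also from a peak of 1.20 kb inside Tph1. Chga had 0.04 kb in 3 libraries from the edge of a peak in Itpk1. Cck had 2.00 and 1.20 kb in HFDLFB replicates 1 and 3, and Neurod1 2.00 and 0.80 kb in HFD female replicate 3 and LFD male replicate 3. Pyy had 0.80 kb in 1 library, and Insl5, Sst and Nts had none in any of the 23. Of the 10 genes, 4 had any H3K27ac length in the HFD and LFD mice and 5 in the recipients, so the others could not pass a test. In the exact permutation test over all libraries, 0 of these 4 and 0 of these 5 genes passed an unadjusted p of 0.05 for HFD against LFD mice (4.69% of 17317 genes), for HFB against LFB recipients (3.84% of 17841) and for HFD against LFD recipients (16.1% of 17841). Diets or donors were permuted within sex or within the other factor, covered length was the measure, and the smallest p the test allows is 0.005. Apart from Tph1, these genes had a peak in only 1 or 2 libraries of each set, too few to reach 0.05 under any labels. Cck, with both its libraries in HFDLFB, had an exact p of 0.4 for HFB against LFB recipients. For the genes other than Tph1 the test could thus not decide.

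**Figure D4:**
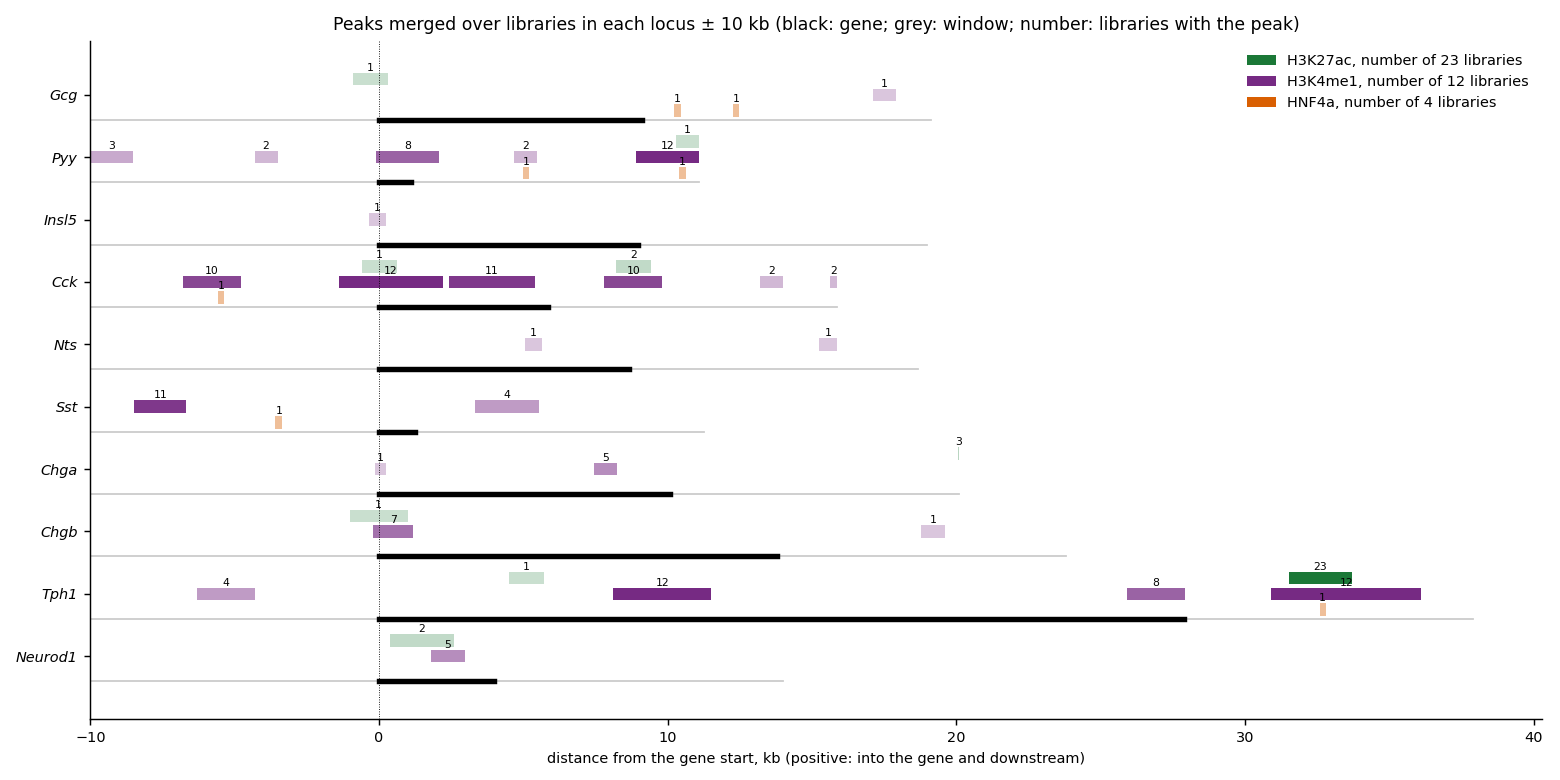
Peaks merged over libraries within each gene and 10 kb around it, by distance from the gene start in kb, with the number of libraries that had the peak inside the window above each bar (of 23 for H3K27ac, 12 for H3K4me1 and 4 for HNF4a) and darker colour for more libraries. H3K4me1 recurs around Cck, Tph1, Pyy and upstream of Sst, while H3K27ac recurs at the Sergef start downstream of Tph1.

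H3K4me1, in contrast, was present at part of the genes in every library. Cck was covered by 4.20 to 8.66 kb of H3K4me1 peaks in its window of 25.87 kb in all 12 libraries, with a peak over the start in 12 of 12, while its RNA was among the lowest of the 10 genes in the recipients. Of the genes at 10 CPM or more, 11.7% had H3K4me1 over the start in all 12 libraries and 31.9% in none. Of those at 1 CPM or more, 17.1% had it in all 12 libraries. Cck, at a mean of 0.798 CPM, lay below both levels, and the share among genes as low as Cck was not tested. Tph1 had 3.40 to 8.80 kb and Pyy 1.21 to 4.60 kb in 12 of 12 libraries. Tph1 had recurrent peaks centred 9.81 kb into the gene and 33.51 kb downstream of its start, the latter at Sergef, and Pyy had one centred 10.49 kb downstream of its start, beyond Ppy. A peak over the Pyy gene itself was present in 8 of 12 libraries. Sst had a peak upstream of the gene, centred at −7.57 kb from its start, in 11 of 12 libraries. Chgb had H3K4me1 at its start in 6 of 12 libraries and Chga and Neurod1 a peak in the window in 5 of 12. Gcg, Insl5 and Nts had a peak in 1 of 12 libraries each, all in LFD males. Insl5 was the 2nd most abundant of the 10 transcripts per length, but in scraped colon of the recipients, in which H3K4me1 was not profiled.

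The H3K4me1 lengths overlapped between the diets for each gene and sex, apart from Cck in males. Cck was covered by 6.00, 6.66 and 6.20 kb in HFD males and by 7.80, 7.20 and 7.20 kb in LFD males, which did not overlap; this was so for 7.77% of the 19804 genes with a peak in males. In females the lengths overlapped and the HFD mean was the higher, with 8.66, 6.60 and 6.40 kb on HFD and 7.0, 4.20 and 6.00 kb on LFD. Over both sexes the mean difference for Cck, HFD minus LFD, was 0.19 kb with a p of 0.815 in the exact permutation test within sex. Chgb had the lowest p of the 10 genes: it had no H3K4me1 peak in the 3 HFD males, 0.8, 0 and 1.0 kb in LFD males, 0, 1.0 and 0.4 kb in HFD females and 0.6, 0.6 and 1.6 kb in LFD females, a mean difference of −0.53 kb with a p of 0.08 in that exact test. In all, 0 of the 10 genes passed an unadjusted p of 0.05, beside 3.85% of 19991 genes. Gcg, Insl5 and Nts, with a peak in 1 of 12 libraries each, could not have passed under any labels.

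**Figure D5:**
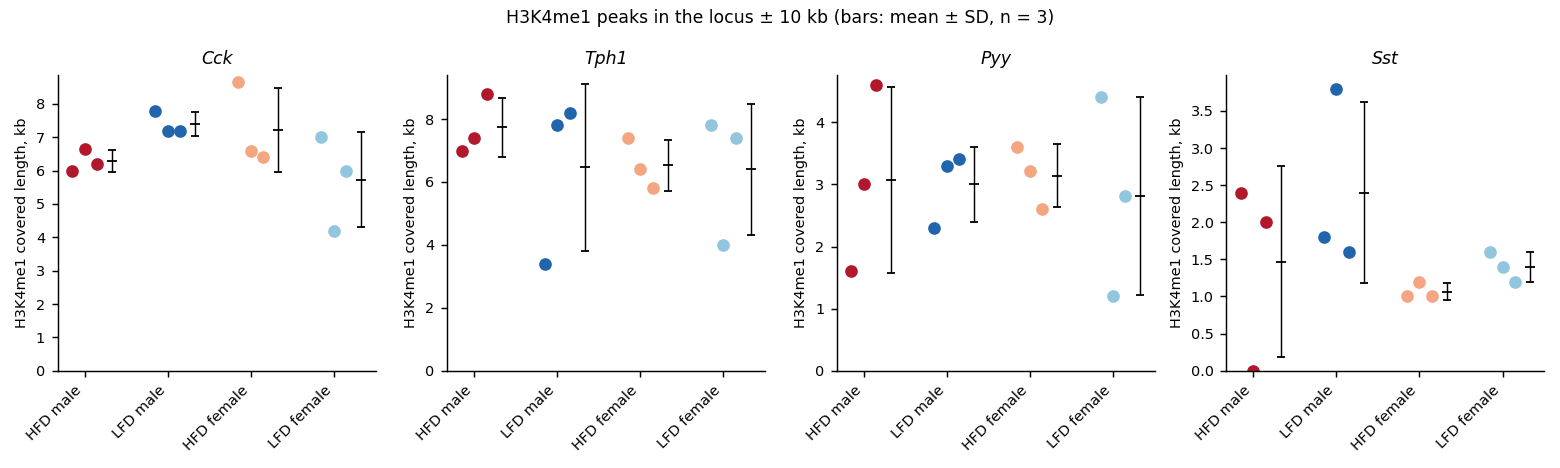
Length covered by H3K4me1 peaks in kb within the locus and 10 kb around it, for the 4 genes with the most recurrent peaks, in 3 libraries per sex and diet with the mean ± SD beside them. For Cck the HFD males lie below the LFD males while the females overlap, and for Tph1, Pyy and Sst the diets overlap in both sexes.

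HNF4a peaks near these genes did not recur between libraries at any position. In all, 7 peaks of 220 to 242 bp lay in the windows of 5 genes, and each was called in 1 of 4 libraries: 2 downstream of Gcg, 2 downstream of Pyy, 1 each upstream of Sst and Cck, and 1 in the exon with the start codon of Sergef in the window of Tph1. Pyy had a peak in both LFD replicates, at positions 5.09 and 10.52 kb from its start, and no gene had one in both HFD replicates; of all genes, 34.4% had a peak in their window in both LFD replicates and 32.2% in both HFD replicates. None lay within a gene body of the 10. With 2 libraries a diet the smallest p of an exact test is 0.333, so no test was made. The HNF4a core sites CAAAGTCCA and CAAAGGTCA, searched on both strands, were in 0 of the 7 peaks, beside 6.82% and 4.69% of the 94219 peaks of the 4 libraries. The half-site CAAAG was in 3 of the 7, beside 68.6% of all peaks; those 3 are printed with it, or its reverse complement, in capitals, on the plus strand of mm9, and GENCODE vM1 annotates no gene at any of them.
Gcg, 10.34 kb downstream of the start, chr2:62311250-62311491, HFD male replicate 2: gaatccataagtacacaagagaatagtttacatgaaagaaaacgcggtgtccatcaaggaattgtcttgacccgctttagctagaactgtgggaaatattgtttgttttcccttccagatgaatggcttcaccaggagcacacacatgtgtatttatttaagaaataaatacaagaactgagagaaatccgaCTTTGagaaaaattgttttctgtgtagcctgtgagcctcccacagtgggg
Pyy, 5.09 kb downstream of the start, chr11:101963895-101964114, LFD male replicate 2: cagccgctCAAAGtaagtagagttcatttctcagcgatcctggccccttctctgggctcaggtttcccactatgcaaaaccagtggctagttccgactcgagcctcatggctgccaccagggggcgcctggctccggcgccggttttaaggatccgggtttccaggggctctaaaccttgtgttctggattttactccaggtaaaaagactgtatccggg
Cck, at −5.47 kb from the start, chr9:121410163-121410392, LFD male replicate 1: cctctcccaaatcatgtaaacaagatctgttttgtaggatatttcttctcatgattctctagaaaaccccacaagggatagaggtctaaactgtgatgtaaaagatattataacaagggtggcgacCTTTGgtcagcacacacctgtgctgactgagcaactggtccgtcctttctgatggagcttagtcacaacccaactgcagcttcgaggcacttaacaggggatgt
The Cck peak lay inside a stretch that carried H3K4me1 in 10 of 12 libraries, and the Pyy peak inside one that carried it in 2 of 12.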

How the data were processed

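RNA-seq was made from 12 recipient libraries and ChIP-seq from 23 H3K27ac, 12 H3K4me1 and 4 HNF4a libraries. The authors deposited raw read counts per gene, made with STAR 2.5 and featureCounts 1.5.0-p1 on mm9. They also deposited peak lists as positions in bp from de-duplicated reads (Bowtie 0.12.8, Picard 1.110), called per library with SICER for the histone marks and HOMER for HNF4a, with no score or read count, so ChIP depth is unknown. Whether counting used strand was not given in the sources used here.

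Counts were fitted in edgeR 4.0.16 (R 4.3.3) with TMM scaling, filterByExpr and 1 quasi-likelihood model of the 4 groups, and p-values were adjusted by the Benjamini-Hochberg method over all genes tested. DESeq2 1.42.0, other filters, a replicate block and leaving out each library were the alternatives. Simulated counts for HFDHFB against HFDLFB with 15893 genes recovered 5 of 62 genes changed 2-fold, 65 of 70 changed 4-fold and 68 of 68 changed 8-fold, with 4 false calls. The simulation gave every gene the same spread and held no library that stood apart, so these shares do not carry over to the 10 genes. In the data, Nts in LFDHFB against LFDLFB had a log2 fold change of 3.58 ± 1.19 and an edgeR adjusted p of 0.975. CPM were scaled to TMM-adjusted totals. Correlations between genes used log2 CPM with a prior count of 2, and those with summed marker lists used log2 CPM with no prior count. Values of lists and of the most alike genes without LFDHFB replicate 3 were added after seeing the data. Peaks were counted where they overlapped the locus extended by 10 kb by at least 1 bp, and covered lengths were compared by a two-sided exact stratified permutation test. Each of the 10 genes was named, and for each the 3 most alike genes; other genes came from lists. The genes and lists were chosen with earlier results of these data known.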

Additional observations from a re-analysis of the deposited data

How the results depend on the processing

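None of the 50 fold changes of the 10 genes passed an adjusted p of 0.05 under any alternative that gave one. The lowest was 0.0824 for Gcg in DESeq2, which gave none for Sst. Of 940 alternative values 910 kept their direction and 30 reversed, 28 of them on leaving out 1 library and 13 of these without LFDHFB replicate 3. The cause was not tested. Many of the 940 values could hardly reverse, so the share kept does not measure robustness. An alternative that changed only the p threshold reused the main fold changes. Leaving out a library outside a comparison barely moved the fold changes of that comparison. With the replicate block 0 of the 10 genes passed in any comparison, and Sst turned to −0.29 for HFDHFB against HFDLFB and to 0.46 for HFDLFB against LFDLFB. The replicate numbers did not pair the libraries: over 18 same-numbered pairs r ran from −0.591 to 0.451 with a median of −0.204, and 1 of 12 libraries correlated best with its own number. Leaving out 1 library at a time, HFDHFB against HFDLFB ran from −0.02 to 0.36 for Chgb, −0.75 to 0.20 for Nts, −0.05 to 0.71 for Tph1 and −0.25 to 0.06 for Neurod1. LFDHFB against LFDLFB ran from −0.62 to 0.13 for Gcg, −0.33 to 0.04 for Pyy, −1.19 to 2.5 for Sst, −0.09 to 1.25 for Tph1 and −1.86 to 0.82 for Cck. The interaction ran from −1.0 to 0.24 for Chga, −1.38 to 0.02 for Chgb, −2.09 to 1.58 for Sst and −1.0 to 0.33 for Tph1. HFDHFB against LFDHFB ran from −0.67 to 0.57 for Chga, −0.96 to 0.44 for Chgb, −1.12 to 1.5 for Sst, −1.93 to 0.51 for Nts, −0.51 to 0.82 for Tph1 and −0.52 to 0.20 for Neurod1. HFDLFB against LFDLFB ran from −0.18 to 0.13 for Pyy, −0.35 to 0.30 for Insl5 and −1.28 to 1.49 for Sst. With the locus extended by 50 kb, which takes in more neighbours, H3K27ac length passed an unadjusted exact p of 0.05 for 1 gene in HFD against LFD mice (Chgb), 2 in HFB against LFB recipients (Gcg and Chgb) and 4 in HFD against LFD recipients (Pyy, Nts, Tph1 and Cck), beside 5.83%, 3.55% and 21.4% of genes. Cck at 0.15 to 2.27 CPM was the gene most limited by depth.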

Other observations

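Of 12 receptors for nutrients and bacterial metabolites, through which enteroendocrine cells sense the lumen, 10 were tested and none passed the adjusted threshold in any comparison. The summed level of the 12 was 43.7 to 46.8 CPM in HFDHFB and 31.8 to 35.4 CPM in HFDLFB, which did not overlap, and 25.4 to 43.2 CPM in LFDHFB and 25.8 to 42.6 CPM in LFDLFB, which did. Of single genes, 13.0% did not overlap in HFDHFB against HFDLFB, and 7 of the 10 receptors tested had a log2 fold change above 0 there. Ffar4, a receptor for long-chain fatty acids, was the most abundant at 14.9 to 26.7 CPM. Ffar2 followed at 3.77 to 16.3 CPM, and these 2 weigh most in the sum. Olfr78, a receptor for short-chain fatty acids that enterochromaffin cells express, stood at 2.64 ± 1.18 CPM in HFDHFB and 1.08 ± 0.286 CPM in HFDLFB (SD, n = 3 each), a log2 fold change of 1.28 ± 0.44 with an adjusted p of 0.497 in edgeR; it was chosen after its values were seen. Of 18 receptors of the hormones themselves, 15 were tested and none passed, and the neurotensin receptor Sort1, also a general sorting protein, was the most abundant at 463 to 646 CPM.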
